A study of Mus musculus with 6 samples.

Results

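Immediate early genes are the genes a cell transcribes within minutes of a growth factor, stretch, hormonal or stress signal, without making new protein first. The 10 genes described here are Fos, Fosb, Jun, Junb, Egr1, Egr2, Egr3, Atf3, Nr4a1 and Ier3, out of 54532 gene identifiers in the deposited expression table. Each was found by matching its Ensembl identifier to its symbol in GENCODE mouse release M21, and all 10 were found once. Expression was measured by RNA-seq in the hearts of 6 male C57BL/6 mice, with 1 library per mouse. The 3 Chow mice received standard chow and regular drinking water, and their labels also give 12 weeks. The 3 HFpEF mice, a model of heart failure with preserved ejection fraction, ate a high-fat diet with 60% of kcal from fat for 12 weeks while drinking water that held 0.5 g/L of L-NAME, which blocks nitric oxide synthases. The labels call the tissue heart and the study's methods call it left ventricular myocardium. Gene positions below are from GENCODE M21 on GRCm38. Values are FPKM, fragments per kilobase of exon with a scaling between libraries made by the authors. Libraries are named by group and replicate number.

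FOS and JUN proteins pair through a leucine zipper to form the AP-1 transcription factor, and FOS proteins need a JUN partner to bind DNA. The EGR proteins are zinc finger transcription factors induced by growth factors and by mechanical load. ATF3 is a stress-induced member of the ATF/CREB family, and NR4A1 is an orphan nuclear receptor. Ier3 was listed with these factors but encodes a small stress-induced protein that acts on survival signalling and is not a DNA-binding transcription factor. In heart muscle these genes are known for a fast and brief rise after pressure overload, adrenergic stimulation or handling of the tissue, and their transcripts are short-lived.

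The 10 genes are compact. Their median span in the genome was 5287 bases, against 24269 bases for the 12064 tested genes with an annotated 3′ untranslated region. The span was under 10000 bases for 8 of the 10, against 24% of those genes, and the exceptions were Atf3 and Nr4a1. The pentamer ATTTA, the core of AU-rich elements that mark unstable transcripts, occurred in the 3′ untranslated region of every member. It was found at a median of 2.95 per kb in the members and 1.30 per kb in all tested genes, and it was densest in Ier3 at 8.16 per kb and sparsest in Fosb at 0.434 per kb. The longer form TATTTAT was present in 5 of the 10 (Fos, Fosb, Jun, Atf3 and Ier3) and in 30.1% of tested genes.

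The 250 bases before the transcription start were available from RefSeq (GRCm38.p6) for 8 of the 10 genes, all but Egr1 and Egr3. Both strands were searched for 7 motifs, and overlapping matches of different motifs were each counted. The pentamer TGACG, shared by cAMP response elements, was present in 6 of the 8 (Fos, Fosb, Junb, Egr2, Atf3 and Nr4a1) and in 19.8% of the 27025 genes with a promoter entry. The full palindrome TGACGTCA was in none of the 8 and in 1.77% of all genes, and the AP-1 site TGANTCA was in none of the 8 and in 7.82%. The EGR site GCGNGGGCG was found for Fosb and Nr4a1 (5.33% of all genes), the CArG box bound by SRF for Egr2 (1.62%), the box TATAAA for Fos (14.3%) and the NF-kB site for Fos, Fosb and Egr2 (5.67%). Matches of letters are described here and were not tested as binding sites.

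Promoters of 4 genes are printed because between them they hold the 4 motifs shown. Capitals mark TGACG on either strand, TATAAA, the CArG box and the EGR site, and the NF-kB site is not marked. They are Fos at chr12:85473640-85473889 (plus strand), the third of 5 Egr2 entries at chr10:67537619-67537868 (plus strand), Atf3 at chr1:191183334-191183583 (minus strand) and Nr4a1 at chr15:101266596-101266845 (plus strand). Counting -1 as the last base before the start, TGACG began at -129 and -66 and TATAAA at -33 in Fos, the CArG box began at -72 in Egr2, TGACG began at -7 in Atf3 and the EGR site began at -60 in Nr4a1, which held TGACG at 4 places.
Fos: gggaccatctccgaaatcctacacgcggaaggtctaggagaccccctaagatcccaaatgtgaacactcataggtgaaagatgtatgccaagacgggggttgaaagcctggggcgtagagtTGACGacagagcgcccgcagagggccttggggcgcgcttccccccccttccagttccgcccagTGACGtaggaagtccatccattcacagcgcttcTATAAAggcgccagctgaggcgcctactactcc
Egr2: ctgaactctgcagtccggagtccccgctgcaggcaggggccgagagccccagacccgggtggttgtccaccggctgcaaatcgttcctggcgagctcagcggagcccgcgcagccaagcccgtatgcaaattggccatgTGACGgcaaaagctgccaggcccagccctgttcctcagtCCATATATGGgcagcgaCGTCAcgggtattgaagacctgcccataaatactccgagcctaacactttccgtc
Atf3: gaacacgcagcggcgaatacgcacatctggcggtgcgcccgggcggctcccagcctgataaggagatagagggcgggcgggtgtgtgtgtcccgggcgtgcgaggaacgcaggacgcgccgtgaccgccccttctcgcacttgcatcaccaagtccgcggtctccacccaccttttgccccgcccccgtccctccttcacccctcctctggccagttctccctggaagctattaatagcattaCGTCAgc
Nr4a1: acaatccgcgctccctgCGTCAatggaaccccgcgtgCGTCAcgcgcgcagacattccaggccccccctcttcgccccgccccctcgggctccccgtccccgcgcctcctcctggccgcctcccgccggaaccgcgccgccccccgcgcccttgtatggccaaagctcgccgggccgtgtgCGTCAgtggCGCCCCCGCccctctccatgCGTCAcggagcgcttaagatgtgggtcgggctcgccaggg

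FPKM is per length, so levels can be compared between genes. In Chow hearts Jun was highest at 29.6 ± 1.26 FPKM (mean ± SD, n = 3), followed by Ier3 at 23.3 ± 4.30, Junb at 13.3 ± 5.77, Nr4a1 at 12.3 ± 6.07 and Egr1 at 11.4 ± 13.2 FPKM. Fos at 3.33 ± 3.52 and Atf3 at 2.20 ± 0.551 FPKM came next, and Egr3 at 0.697 ± 0.487, Egr2 at 0.353 ± 0.175 and Fosb at 0.199 ± 0.242 FPKM were lowest. In this order Jun and Ier3, Ier3 and Junb, and Atf3 and Egr3 differed by more than the larger SD of the pair, and no other neighbours did. In HFpEF hearts the order was the same apart from Egr2 and Egr3, and the only neighbours that differed by more than the larger SD were Atf3, at 7.56 ± 5.34 FPKM, and Egr2, at 1.43 ± 1.69 FPKM.

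The question for each gene was whether its level differed between HFpEF and Chow hearts. No member was called at an adjusted p under 0.05 in limma, against 0.0984% of the 14225 genes tested. None met the study's cutoffs for a differentially expressed gene (DEG) either, which add a log2 fold change of 2 or more in size (0.0562% of genes). The study applied these cutoffs to DESeq2 results and reported far more DEGs than the 8 genes called here. The limma fit on FPKM is a different test, so it does not show whether the study's own test called a member. Genes were tested when they reached 0.5 FPKM in at least 3 libraries, which 9 members did and Fosb did not. Egr2 and Egr3 reached it in exactly 3 libraries, namely Chow 2, HFpEF 1 and HFpEF 3. An unadjusted p under 0.05 was found for 1 member, Atf3, against 23.3% of all genes in either direction and 10.2% with higher levels in HFpEF. The groups did not overlap for the same member, against 35.3% of all genes in either direction and 15.5% with higher levels in HFpEF. Neither count, 1 of 9 members tested, stood out from the shares with higher levels. The fitted log2 fold change was above 0 for all 9 members tested, against 48.8% of genes, with a median of 0.55, and without the FPKM minimum the median over all 10 was 0.61. The median over all tested genes was -0.012.

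**Figure D1:**
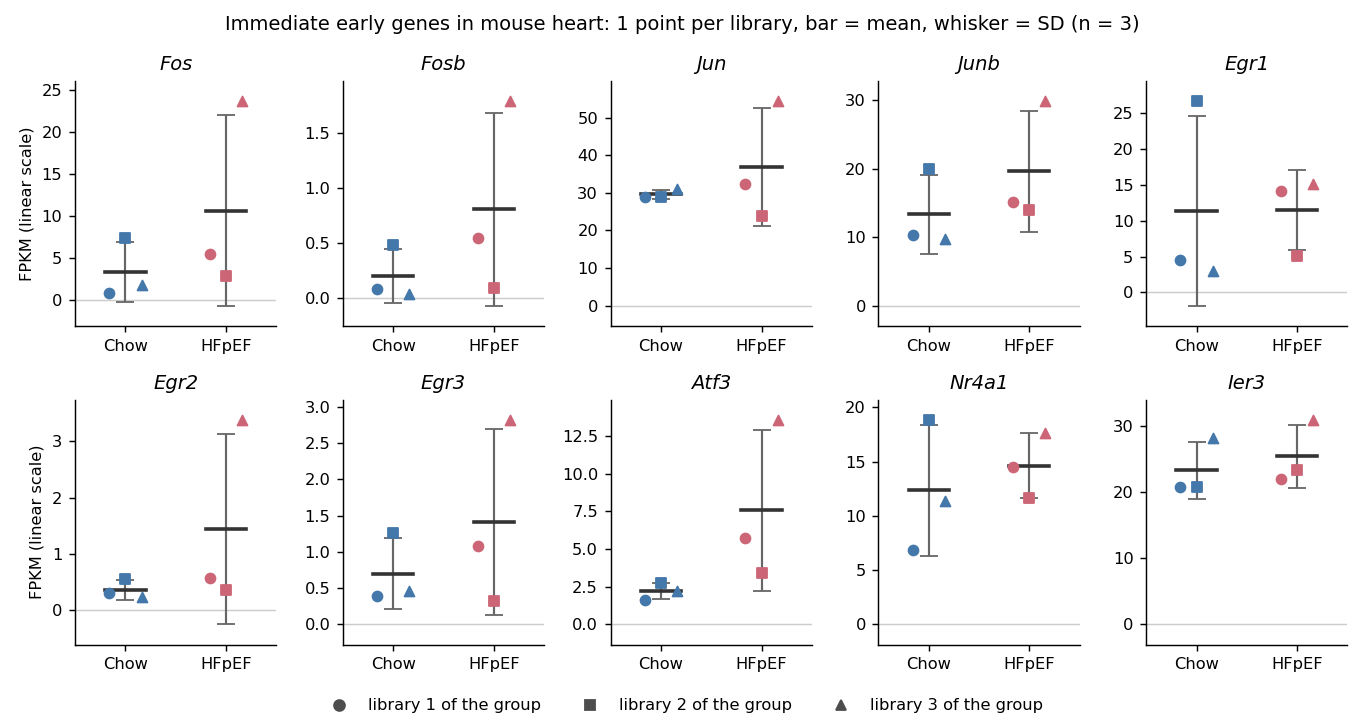
FPKM of each gene on a linear axis in every library, with Chow in blue and HFpEF in red, the marker shape giving the library's replicate number, and the bar and whisker giving the mean ± SD (n = 3). Atf3 was the one gene with all HFpEF points above all Chow points, and the square for Chow 2 stood above the other Chow libraries for 8 of the 10 genes.

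Fos (chr12:85473890-85477273, plus strand), the FOS family member with the best-known induction, was at 0.866, 7.36 and 1.76 FPKM in Chow 1, 2 and 3 and at 5.47, 2.84 and 23.6 FPKM in HFpEF 1, 2 and 3. The highest HFpEF and Chow libraries stood well above their own groups, and Chow 2 lay above both HFpEF 1 and HFpEF 2. The mean was 3.33 ± 3.52 FPKM in Chow and 10.6 ± 11.3 FPKM in HFpEF. The fitted log2 fold change was 1.62 (SE 0.98, 95% confidence interval -0.73 to 3.96, limma adjusted p = 0.345). The exact two-sided permutation test of group means gave p = 0.3, where 3 mice against 3 cannot go below 0.1. Reads recovered from the FPKM steps numbered 29, 203 and 50 in Chow and 178, 113 and 1073 in HFpEF, and the exact Poisson 95% intervals of Chow 1 (19.4 to 41.6 reads) and Chow 2 (176 to 233 reads) were far apart. These intervals cover counting error only.

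Fosb (chr7:19302696-19310051, minus strand), the closest relative of Fos, was at 0.0787, 0.478 and 0.0397 FPKM in Chow 1, 2 and 3 and at 0.544, 0.0945 and 1.78 FPKM in HFpEF 1, 2 and 3. The order of the libraries resembled that of Fos, with Chow 2 high among Chow and HFpEF 3 high among HFpEF. Few reads stood behind the low values, 3 in Chow 3 and 7 in Chow 1. The 3 reads of Chow 3 have an exact Poisson 95% interval of 0.619 to 8.77 reads. Without the FPKM minimum its log2 fold change was 1.34 (SE 0.93, limma adjusted p = 0.562, exact permutation p = 0.2).

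Jun (chr4:95049034-95052222, minus strand), the founding JUN partner of FOS proteins, was at 28.8, 28.9 and 31.0 FPKM in Chow and at 32.5, 23.8 and 54.3 FPKM in HFpEF 1, 2 and 3. It was the steadiest member within Chow, where the highest library was 1.08 times the lowest, and HFpEF 2 was the lowest of all 6. Junb (chr8:84974484-84978718, minus strand), a JUN protein with weaker activating power, was at 10.3, 20.0 and 9.67 FPKM in Chow and at 15.2, 13.9 and 29.8 FPKM in HFpEF. Chow 2 exceeded both HFpEF 1 and HFpEF 2 for Junb. The log2 fold changes were 0.23 for Jun (95% interval -0.45 to 0.92, limma adjusted p = 0.639, exact permutation p = 0.7) and 0.55 for Junb (-0.37 to 1.47, adjusted p = 0.405, exact permutation p = 0.3). Jun overlaps Junos, and Junb overlaps Prdx2, on the opposite strand, and the sources used here do not say whether counting used strand. Junos was at 0.244 to 0.502 FPKM and Prdx2 at 60.9 to 95.1 FPKM, so reads of Junb and of the more abundant Prdx2 may not be separable where they overlap.

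Egr1, the zinc finger factor that reads out MAP kinase and SRF signalling, was at 4.46, 26.7 and 3.04 FPKM in Chow 1, 2 and 3 and at 14.2, 5.08 and 15.2 FPKM in HFpEF 1, 2 and 3. Chow 2 was the highest of the 6 libraries, and the remaining Chow libraries were the lowest. The means were 11.4 ± 13.2 and 11.5 ± 5.56 FPKM. The log2 fold change was 0.52 (95% interval -1.51 to 2.55, limma adjusted p = 0.729, exact permutation p = 0.8).

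Egr2 (chr10:67535475-67542188, plus strand), whose DNA-binding zinc fingers are like those of Egr1, was at 0.289, 0.552 and 0.219 FPKM in Chow and at 0.574, 0.347 and 3.38 FPKM in HFpEF 1, 2 and 3. Egr3 (chr14:70077203-70082614, plus strand), the third family member, was at 0.383, 1.26 and 0.450 FPKM in Chow and at 1.08, 0.321 and 2.82 FPKM in HFpEF. HFpEF 3 was far above every other library for both, and Chow 2 and HFpEF 1 lay close together. The log2 fold change was 1.23 for Egr2 (95% interval -0.67 to 3.13, limma adjusted p = 0.374, exact permutation p = 0.2) and 0.67 for Egr3 (-1.15 to 2.49, adjusted p = 0.608, exact permutation p = 0.7). Outside HFpEF 3, Egr2 rested on 9 to 27 reads and Egr3 on 24 to 66 reads per library. Egr4, the fourth family member, was listed at 0 in all 6 libraries.

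Atf3 (chr1:191170296-191218039, minus strand), a stress-induced factor that binds ATF/CRE sites, was at 1.63, 2.73 and 2.23 FPKM in Chow 1, 2 and 3 and at 5.73, 3.37 and 13.6 FPKM in HFpEF 1, 2 and 3. It was the single member whose groups did not overlap, with HFpEF 2 nearest to Chow. The mean was 2.20 ± 0.551 FPKM in Chow and 7.56 ± 5.34 FPKM in HFpEF. The log2 fold change was 1.53 (SE 0.49, 95% interval 0.36 to 2.70), a fold of 2.89, with an unadjusted limma p of 0.0179 and an adjusted p = 0.155. The exact permutation p was 0.1, the smallest the design allows. The library with the most Atf3 was HFpEF 3, and without it the log2 fold change was 1.00 (limma adjusted p = 0.105). Without Chow 1 the unadjusted limma p of Atf3 was 0.0601 (log2 fold change 1.34, 95% interval -0.081 to 2.77), so its unadjusted call was lost.

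Nr4a1 (chr15:101254269-101274795, plus strand), the nuclear receptor also called Nur77, was at 6.82, 18.8 and 11.4 FPKM in Chow and at 14.5, 11.7 and 17.7 FPKM in HFpEF 1, 2 and 3. Chow 2 was again the highest of all 6 libraries. Ier3 (chr17:35821684-35822923, plus strand), the survival-signalling protein, was at 20.7, 20.8 and 28.2 FPKM in Chow and at 22.0, 23.3 and 30.9 FPKM in HFpEF, the narrowest range in proportion of any member over the 6 libraries. The log2 fold changes were 0.34 for Nr4a1 (95% interval -0.53 to 1.21, limma adjusted p = 0.588, exact permutation p = 0.6) and 0.13 for Ier3 (-0.32 to 0.57, adjusted p = 0.695, exact permutation p = 0.5).

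Spread between mice of the same group was wide. In Chow the highest library was over 2 times the lowest, in FPKM + 0.1, for 7 of the 10 genes, against 8.94% of tested genes, and in HFpEF for 8 of the 10, against 19.9%. Within Chow the ratio was 8.53 for Egr1, 7.72 for Fos and 4.13 for Fosb, and it was 1.08 for Jun and 1.36 for Ier3. Within HFpEF it was 9.66 for Fosb, 8.08 for Fos and 7.78 for Egr2, and it was lowest for Ier3 at 1.40 and Nr4a1 at 1.51. Counting error adds to the spread of Fosb, Egr2 and Egr3, which rest on the fewest reads.

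The variation was shared among genes. Chow 2 was the highest Chow library for 8 of the 10 members, against 32.7% of tested genes, and the exceptions were Jun and Ier3, where Chow 3 was highest. HFpEF 3 was the highest HFpEF library for all 10, against 38.5%, and the highest of all 6 for 8, against 30.5%. Chow 2 was the highest of all 6 for Egr1 and Nr4a1, against 15.8%. HFpEF 2 was the lowest HFpEF library for 9 of the 10, against 27.1%, Ier3 being the exception. Relative to the mean of Chow on the log2(FPKM + 0.1) scale, the median over the 10 genes was -0.41, 0.69 and -0.36 in Chow 1, 2 and 3 and 0.68, 0.029 and 1.64 in HFpEF 1, 2 and 3. The library order was therefore HFpEF 3, Chow 2, HFpEF 1, HFpEF 2, Chow 3 and Chow 1, in which Chow 2 and HFpEF 1 lay almost level.

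**Figure D2:**
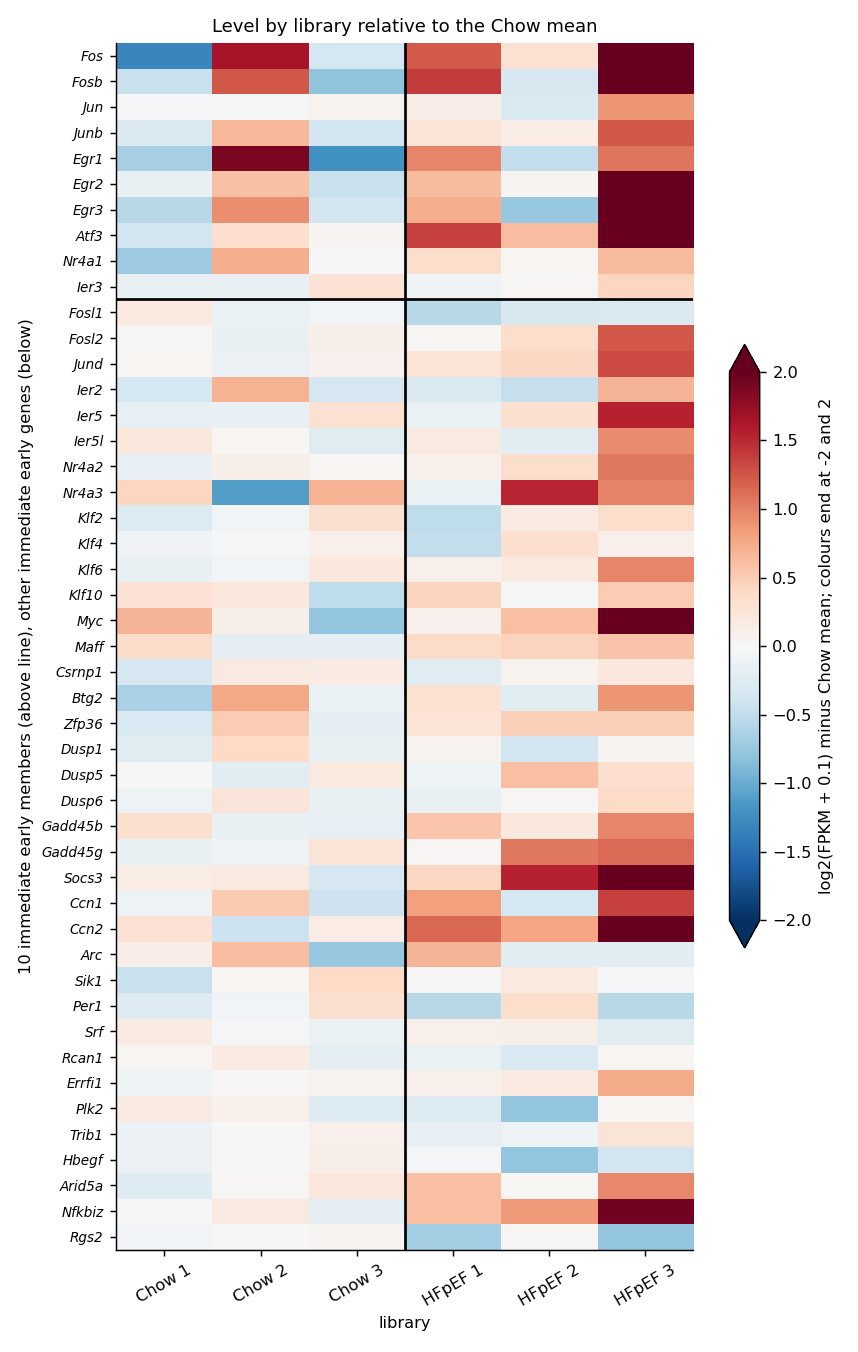
Heat map of log2(FPKM + 0.1) minus the Chow mean, with the 6 libraries as columns and the 10 members above the line and 37 other tested immediate early genes below it, colours ending at -2 and 2. The column for Chow 2 is red for most members and mostly pale below the line, and HFpEF 3 is red for all 10 members.

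Over the 6 libraries the members' log2 levels correlated positively in 44 of 45 pairs, with a median Pearson r of 0.80. The highest r was 0.97 for Fosb and Egr3 and the lowest was -0.17 for Egr1 and Ier3. These are descriptions over the same 6 libraries, so differences between libraries in depth, tissue handling and group can enter every r. It exceeded 0.8 in 24 pairs. Outside the list, the 8 tested genes with the most similar profile to the members' mean were Mbtps1 (r = 0.993), Ywhah (0.988), Mysm1 (0.987), Rac3 (0.981), Zfp764 (0.980), Tmem183a (0.979), Prkd3 (0.978) and Vps37d (0.977). Similarity was judged over 6 libraries and 12289 genes, of which 1.28% had r above 0.9. Rac3 went from 0.923 FPKM in Chow 1 to 4.08 FPKM in HFpEF 3, whereas the range of Mbtps1, a protease that cleaves membrane-bound transcription factors, was 6.96 to 8.94 FPKM.

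The FOS, JUN, EGR and NR4A families show which relatives supply each total. Fos and Fosb together supplied 11.0%, 54.7% and 19.3% of FOS family FPKM in Chow 1, 2 and 3 and 48.2%, 26.7% and 65.6% in HFpEF 1, 2 and 3. The remainder came from Fosl1 and Fosl2, of which Fosl2 was at 4.25 to 5.16 FPKM in Chow and 4.81 to 11.3 FPKM in HFpEF. Fosl1 went the other way, at 2.84, 2.25 and 2.37 FPKM in Chow and 1.65, 1.97 and 2.00 FPKM in HFpEF. Its log2 fold change was -0.39 (limma adjusted p = 0.206). The JUN family total was 64.4, 71.4 and 66.7 FPKM in Chow and 77.4, 70.4 and 145.3 FPKM in HFpEF, of which Jun supplied 33.8% to 46.5%. Jund, the JUN protein expressed without stimulation, was at 22.5 to 26.0 FPKM in Chow and at 29.7, 32.6 and 61.1 FPKM in HFpEF. JUN family FPKM exceeded FOS family FPKM in every library, by 7.49, 4.98 and 7.15 times in Chow and by 6.21, 6.42 and 3.75 times in HFpEF. Egr1 supplied 93.6% of EGR family FPKM in Chow 2 and 71.0% in HFpEF 3, and Nr4a1 supplied 86.2% of the NR4A family in HFpEF 3.

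**Figure D3:**
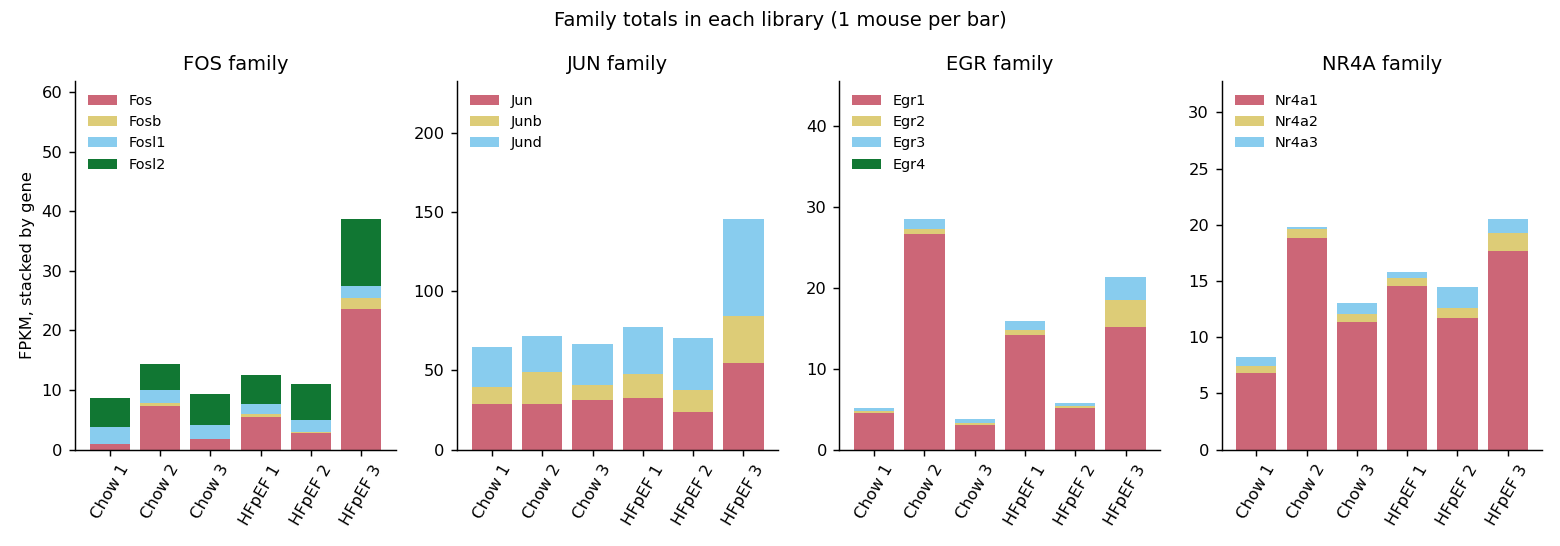
Stacked FPKM of the FOS, JUN, EGR and NR4A families in each library, 1 mouse per bar, with colours giving the genes. The FOS total ran from 8.60 FPKM in Chow 1 to 38.7 FPKM in HFpEF 3, and the EGR total was highest in Chow 2 at 28.5 FPKM.

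A wider list of other immediate early genes was examined beside the members. Of 40 listed, 37 were tested. None was called at an adjusted p under 0.05, 7 were higher and 1 lower in HFpEF at an unadjusted p under 0.05 (10.2% and 13.1% of all genes), and their median log2 fold change was 0.32. HFpEF 3 was the highest of the 6 libraries for 22 of the 37, against 30.5% of all genes. Chow 2, however, was the highest Chow library for 12 of the 37, close to the 32.7% of all genes. The smallest p-values belonged to Ccn2, a matrix growth factor, at 26.1, 15.9 and 23.8 FPKM in Chow and 48.1, 37.1 and 86.1 FPKM in HFpEF (log2 fold change 1.31, limma adjusted p = 0.119), Nfkbiz (1.13), Socs3 (1.67), Maff (0.47) and Gadd45b (0.58), with limma adjusted p from 0.119 to 0.206. Ccn2 was lowest in Chow 2, at 15.9 FPKM. Socs3, a feedback inhibitor of cytokine signalling, was at 2.16, 2.21 and 1.52 FPKM in Chow and 2.62, 5.84 and 16.6 FPKM in HFpEF. Ier2, picked because of its values, was at 13.6, 28.1 and 13.7 FPKM in Chow and 14.0, 12.5 and 27.9 FPKM in HFpEF, with the same pair of high libraries as the members.

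Genes that act before and after the members were examined from further lists, which share some genes with each other and with the wider list. Their counts are to be read beside all 14225 genes tested, of which 10.2% were higher and 13.1% lower at an unadjusted p under 0.05. Of 35 upstream kinases and factors, 34 were tested, none had an adjusted p under 0.05, and 2 were higher and 2 lower at an unadjusted p under 0.05, with a median log2 fold change of -0.051. Stat3, a cytokine-activated factor, was at 13.0, 12.7 and 13.9 FPKM in Chow and 18.0, 17.3 and 18.4 FPKM in HFpEF (log2 fold change 0.43, limma adjusted p = 0.103). Crem, which gives rise to a repressor of cAMP response elements, had a log2 fold change of 0.45, and the kinases Map2k5, Map2k2 and Map2k3 had -0.43, -0.24 and -0.26, at limma adjusted p of 0.128 to 0.219. Of 23 feedback regulators, none had an adjusted p under 0.05, and 5 were higher and 2 lower at an unadjusted p under 0.05. The 5 include Crem, already counted among the upstream factors. Nab2, a corepressor of EGR proteins that EGR factors induce, was at 3.63, 3.27 and 3.37 FPKM in Chow and 5.11, 5.88 and 5.84 FPKM in HFpEF (log2 fold change 0.69, limma adjusted p = 0.0828). Nab1, its relative, had 0.39, and Zfp36l2, which destabilises AU-rich transcripts, had 0.71, whereas the MAP kinase inhibitors Spry4 and Dusp10 had -0.36 and -0.66. Of 21 leucine zipper partners that are not immediate early genes, 20 were tested, with 0 adjusted calls and 4 higher and 1 lower at an unadjusted p under 0.05. Among them were Maf (0.89), Nfe2l1 (-0.47), Cebpd (0.75) and Ddit3 (0.36), on the log2 fold change scale.

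Cell composition and library quality moved with some of these values and their part in them was not tested. HFpEF 3 stood apart on the first principal component of all genes, at 75.5, with the other HFpEF libraries at 11.5 and 12.7 and Chow at -35.8 to -31.7. Its mitochondrial genes took 7.17% of reads, against 20.1% to 26.0% elsewhere. Cardiomyocyte marker FPKM summed to 15124 to 16644 in Chow and 7235 to 11367 in HFpEF, with all 8 markers lower in every HFpEF library, and all were detected in every library. Fibroblast markers summed to 220 to 259 FPKM in Chow and 425 to 5522 in HFpEF, of which 5522 was HFpEF 3. Most of that sum was Col1a1 at 2252, Col3a1 at 1810 and Col1a2 at 702 FPKM, with Postn at 356 and Lum at 182. The remaining fibroblast markers set HFpEF 3 apart far less. In HFpEF 1, 2 and 3 Dcn was at 177, 168 and 196 FPKM, Pdgfra at 11.3, 11.6 and 13.0, and Tcf21 at 9.44, 5.30 and 9.61. Macrophage markers summed to 110 to 139 FPKM in Chow and 136 to 374 FPKM in HFpEF. Red blood cell markers, which differ with the blood left in the tissue, summed to 280, 1591 and 501 FPKM in Chow 1, 2 and 3 and to 1813, 478 and 585 FPKM in HFpEF, so Chow 2 and HFpEF 1 were the high libraries. Adipocyte markers summed to at most 0.123 FPKM in Chow, with Adipoq at 0 in all 3 libraries, and to 37.8 to 97.9 FPKM in HFpEF. Atrial markers summed to 13.3, 16.2 and 538 FPKM in Chow 1, 2 and 3 and to 2453, 3834 and 20.6 FPKM in HFpEF. For these markers HFpEF 1, HFpEF 2 and Chow 3 were therefore the high libraries, although the study's methods name left ventricular tissue. Why they differed was not tested. Smooth muscle and pericyte markers were at 261 to 304 and 200 to 671 FPKM in Chow and HFpEF, and endothelial markers at 200 to 221 and 161 to 169. Mesothelial markers were at 18.7 to 29.3 and 36.4 to 131 FPKM in Chow and HFpEF, and neutrophil markers at 1.56 to 4.97 and 3.37 to 5.81. In bulk tissue, more cells of a type and more RNA per cell cannot be told apart.

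Leaving out Chow 2 moved more members past an unadjusted p under 0.05. Chow 2 was the highest Chow library for 8 of the 10 members, so leaving it out had to lower their Chow mean. The log2 fold changes were then 2.44 for Fos, 1.46 for Egr1, 0.88 for Junb, 0.70 for Nr4a1 and 1.70 for Atf3. Each had an unadjusted p under 0.05, and none was below an adjusted limma p of 0.358. Of all genes 13.4% were under 0.05 in either direction, and 896 of the 14225 tested were higher. The groups did not overlap for 6 members, all higher in HFpEF. Of all genes 41.9% did not overlap in either direction, and 2695 were higher. Without both Chow 2 and HFpEF 3, chosen once the values were known, 3 members (Fos, Junb and Atf3) had an unadjusted p under 0.05, against 19.8% of genes, and the groups did not overlap for 6, against 53.2%. HFpEF 3 was the highest HFpEF library for every member, so leaving it out had to lower every log2 fold change. Without HFpEF 3 these were 0.77 for Fos, 0.21 for Junb, 0.24 for Egr1, 0.34 for Egr2, 0.19 for Nr4a1 and 1.00 for Atf3. Jun, Egr3 and Ier3 were then at -0.089, -0.014 and -0.023, and 6 of 9 members had a value above 0, against 48.8% of genes.

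**Figure D4:**
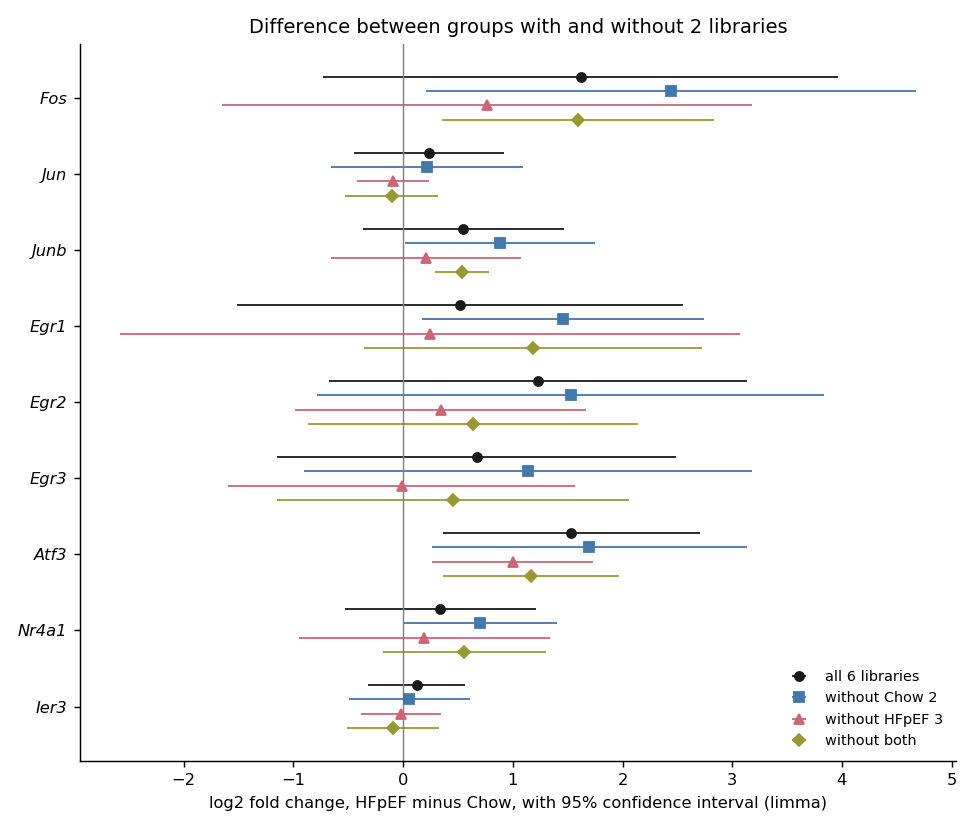
log2 fold change, HFpEF minus Chow, of the 9 tested genes with 95% confidence intervals from limma, for all 6 libraries, without Chow 2, without HFpEF 3 and without both. For Atf3 the interval lay above 0 in the 4 fits shown, though not without Chow 1, and without Chow 2 it also lay above 0 for Fos, Junb, Egr1 and Nr4a1.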

How the data were processed

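RNA-seq was performed on 3 Chow and 3 HFpEF hearts, grouped by the sample labels. Per the study's methods, the authors used HISAT2 for alignment, featureCounts for gene counts and DESeq2 for differential expression. The deposited values are FPKM. The submitters' processing notes name the builds GRCm38 and mm10. The formula behind the deposited FPKM, strandedness and annotation are not given in the sources used here. FPKM times GENCODE M21 exon length gave whole reads for 96.1% to 96.2% of values above 0 (relative tolerance 1e-06), with 13076772 to 16027084 reads per library. The library size implied by the FPKM was below these reads in each Chow library and above them in each HFpEF library. The excess was largest in HFpEF 3, at 19316914 against 15196287 reads. Why the scaling differed was not tested.

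After median-of-ratios rescaling, log2(FPKM + 0.1) was fitted for every gene reaching 0.5 FPKM in 3 or more libraries with limma 3.58.1 in R 4.3.3 (eBayes with trend and robust options, Benjamini-Hochberg adjustment). The rescaling factors were 1.003 to 1.006, so that step changed little. Fold changes on the log2(FPKM + 0.1) scale understate those of low genes. Calls used an adjusted p under 0.05, and DEGs also a log2 fold change of 2 or more in size. Alternatives were other scalings, pseudocounts of 1 and 0.01, other filters, eBayes without options, voom on recovered reads, a replicate block and leaving out libraries. In each gene list the genes with the 5 smallest p-values are named, apart from 1 that is not reported here. Members and lists were chosen with earlier results of these data known. Figures used Python 3.11.15.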

Additional observations from a re-analysis of the deposited data

How the results depend on the processing

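No alternative called a member at an adjusted p under 0.05 or as a DEG, and the lowest adjusted limma p of any member in any fit was 0.0872, for Junb without both Chow 2 and HFpEF 3. Members with an unadjusted p under 0.05 numbered 1 with all libraries (23.3% of all genes) and 0 to 5 with 1 library left out. The 0 was without Chow 1, where Atf3 lost its call and 952 of the 14225 genes tested were higher and 1129 lower. The 5 was without Chow 2 (13.4% of all genes in either direction). Without both Chow 2 and HFpEF 3, a choice made after the values were seen, there were 3 (19.8%). Members whose groups do not overlap numbered 1 with all libraries (35.3% of all genes) and 1 to 6 with 1 library left out. Without Chow 2 there were 6 (41.9% of all genes in either direction). Without HFpEF 2 there were 3, where 2981 of the 14225 genes tested were higher without overlap and 3566 lower. Without Chow 3 there were 2, where 2842 genes were higher without overlap and 3460 lower. Without both Chow 2 and HFpEF 3 there were 6, where 53.2% of all genes do so. With 1 library left out the log2 fold change ran from -0.023 to 0.70 for Nr4a1 (lowest without Chow 1), -0.088 to 1.46 for Egr1 (lowest without Chow 3), -0.089 to 0.50 for Jun, -0.014 to 1.38 for Egr3 and -0.023 to 0.27 for Ier3, these 3 lowest without HFpEF 3. It ran from 0.77 to 2.44 for Fos, 0.34 to 1.82 for Egr2, 0.21 to 0.88 for Junb and 1.00 to 1.99 for Atf3, each also lowest without HFpEF 3 and highest without Chow 2 (Fos, Junb) or HFpEF 2 (Egr2, Atf3). Without both libraries Jun was at -0.11 and Ier3 at -0.095. The median over members moved from 0.55 to 1.14 without Chow 2, 1.02 without HFpEF 2, 0.21 without HFpEF 3 and 0.36 without Chow 3. The cause was not tested. Other scalings, pseudocounts, filters and voom turned no member's direction. Without HFpEF 3, where 407 genes of the whole table were higher and 782 lower at an adjusted p under 0.05, so were 1 upstream factor and 2 feedback regulators (higher) and, among leucine zipper partners, 1 higher and 1 lower.

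Replicate numbers did not pair the libraries: deviations of same-numbered libraries correlated at -0.041, -0.073 and -0.057. With the replicate block, 0 members were called, 2 genes in all had an adjusted p under 0.05 against 14 without it, and Atf3 had an adjusted limma p of 0.198.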
